A study of Mus musculus with 45 samples.

Results

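Copy number along mouse chromosome 15 was measured in mammary tumors of 8 genetically engineered mouse (GEM) models by array comparative genomic hybridization (CGH), which compares tumor DNA with reference DNA spot by spot. The probes, of 45 to 60 bases, were all those placed on chromosome 15 in the mm8 build, except those carrying 4 gene names, and 1625 probes of 42230 on the autosomes and chromosome X met this rule. They run from 3.23 to 103 Mb, with a median gap of 21.8 kb and a largest gap of 3.64 Mb. Of the 45 tumors, each on 1 array, 5 were BRCA1fl/fl;p53+/-;MMTV-cre (below BRCA1-/-;p53+/-), 5 MMTV-c-Myc (MMTV-Myc), 5 C3(1)/SV40 T/t-antigens (C3(1)-Tag), 5 MMTV-Her2/neu, 5 MMTV-H-Ras (MMTV-HRas), 6 p53fl/fl;MMTV-cre given as transplants (p53-/-), 9 MMTV-PyMT and 5 MMTV-Wnt1. No treatment or age entered the comparisons. The MMTV promoter, which drives the oncogene or the Cre recombinase in all models but C3(1)-Tag, is active mainly in mammary epithelium and in some other tissues, and a transplanted tumor grows in a host that did not carry the engineered alleles in its own tissue. Tumors are numbered in accession order within a model.

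Gains of mouse chromosome 15 are common in mouse mammary and lymphoid tumors. Its middle stretch matches the distal long arm of human chromosome 8, a region often gained in human breast cancer, while its distal part matches stretches of other human chromosomes and carries the type II keratin genes, expressed in epithelia, and the Hoxc genes, which set position along the body axis. A gain of the whole chromosome adds a copy of every gene on it, whereas a partial gain or a focal amplification raises only some of them.

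The chromosome also carries microRNAs, short RNAs that lower target messages through their seed, bases 2 to 8. The 5 mature sequences below come from loci that lie between measured genes. They are shown because a whole gain covers them and because their flanking genes have values here, with the seed in capitals (RefSeq, GRCm38.p6, plus strand):
mmu-let-7c-5p, chr15:85706616-85706637: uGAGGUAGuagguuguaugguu
mmu-let-7b-5p, chr15:85707325-85707346: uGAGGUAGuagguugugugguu
mmu-miR-33-5p, chr15:82198127-82198147: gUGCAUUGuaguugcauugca
mmu-miR-196a-5p (Mir196a-2), chr15:102973365-102973386: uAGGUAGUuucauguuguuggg
mmu-miR-148b-3p, chr15:103285185-103285206: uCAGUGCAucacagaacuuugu
The let-7 sequences share 1 seed, and the other 3 seeds differ from it and from each other. Wnt7b and Ppara, on either side of both let-7 loci, had a mean log2 ratio of 0.38 ± 0.32 (SD, n = 5) in MMTV-HRas and 0.03 ± 0.16 (n = 5) in MMTV-Myc. Xrcc6 and Septin3, around Mir33, had 0.45 ± 0.27 in MMTV-HRas and 0.00 ± 0.13 in MMTV-Myc. Hoxc10 and Hoxc9, around Mir196a-2, had 0.32 ± 0.20 and -0.26 ± 0.25, and Hnrnpa1 and Gpr84, around Mir148b, had 0.35 ± 0.41 and 0.15 ± 0.13. These pair means are descriptions without a test, and MMTV-HRas had the higher mean at all 4 pairs.

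Signed values are the log2 ratio of Cy3 over Cy5, taken as tumor over reference, with the median of the autosomal probes set to 0 on every array, so that 0.58 would be 1 extra copy in every cell of a diploid tumor. This direction opposes the dye labels, which put the tumor in Cy5, and it was decided after values were seen. Of 755 intervals of the authors' table with at least 3 probes and a mean at least 0.2 from 0, 740 (98.0%) had the sign opposite to Cy5 over Cy3. On chromosome 15 it was 40 of 41. With the dyes as labelled, every gain below would be a loss and every loss a gain. The spread of neighbouring probes ran from 0.152 to 0.487 between arrays (median 0.236), and 2 pairs of arrays with different labels were nearly alike. C3(1)-Tag tumor 4 and MMTV-Her2/neu tumor 3 correlated at r = 0.93 over all 1 Mb bins, and C3(1)-Tag tumor 3 and MMTV-Her2/neu tumor 2 at r = 0.96, whereas the highest r of any other pair of different models was 0.82. Over the chromosome 15 bins alone r was 0.28 and 0.49. The authors' intervals put 100% of the chromosome 15 probes of C3(1)-Tag tumor 3 in a gain, while its array gave a mean of 0.00. The label of MMTV-Wnt1 tumor 1 is also in doubt. The tumors lie on 18 slides and the slides of BRCA1-/-;p53+/-, MMTV-HRas and p53-/- held no other model, so for these 3 models slide and model cannot be told apart. The labels do not say whether tumors came from separate mice, and p-values then measure the spread between these tumors. Fewer cells with a gain and fewer extra copies per cell cannot be told apart in these bulk samples.

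Chromosome 15 was gained in 14 of 45 tumors (31.1%, exact 95% interval 18.2 to 46.6%), where a gained tumor has at least 10% of the probes in segments with a mean of at least 0.2. The gain covered the whole chromosome, at least 90% of its probes, in 12 of the 14. MMTV-HRas had the most gained tumors, 4 of 5 (80%, exact interval 28.4 to 99.5%), followed by BRCA1-/-;p53+/- with 3 of 5 (60%, 14.7 to 94.7%). MMTV-PyMT had 3 of 9 and p53-/- 2 of 6, C3(1)-Tag and MMTV-Her2/neu had 1 of 5 each, and MMTV-Myc and MMTV-Wnt1 had 0 of 5 each (interval up to 52.2%). The single C3(1)-Tag and the single MMTV-Her2/neu gain are the nearly identical pair of arrays. The share of gained tumors did not differ between models past the threshold (permutation test, two-sided, p = 0.0812), and with those 4 arrays left out the same test gave p = 0.0242 over 12 gained tumors.

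The mean log2 ratio of the chromosome in the MMTV-HRas tumors was 0.30, 0.62, -0.05, 0.73 and 0.43 in tumors 1 to 5. All but tumor 3 lay above every MMTV-Her2/neu, MMTV-Wnt1, MMTV-Myc and C3(1)-Tag tumor. The BRCA1-/-;p53+/- tumors had 0.08, 0.31, 0.35, 0.01 and 0.52, so that 3 were high and 2 near 0. The p53-/- tumors ran widest, at 0.52, -0.32, -0.21, -0.12, 0.14 and 0.14. The 9 MMTV-PyMT tumors had a lowest value of -0.02, a median of 0.03 and a highest of 0.43, in tumor 1, with 0.39 in tumor 4. C3(1)-Tag ran from -0.01 to 0.24 and MMTV-Her2/neu from -0.04 to 0.26. MMTV-Myc stayed within -0.03 and 0.05, and MMTV-Wnt1 within -0.04 and 0.145, the highest being the tumor whose label is in doubt.

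**Figure D1:**
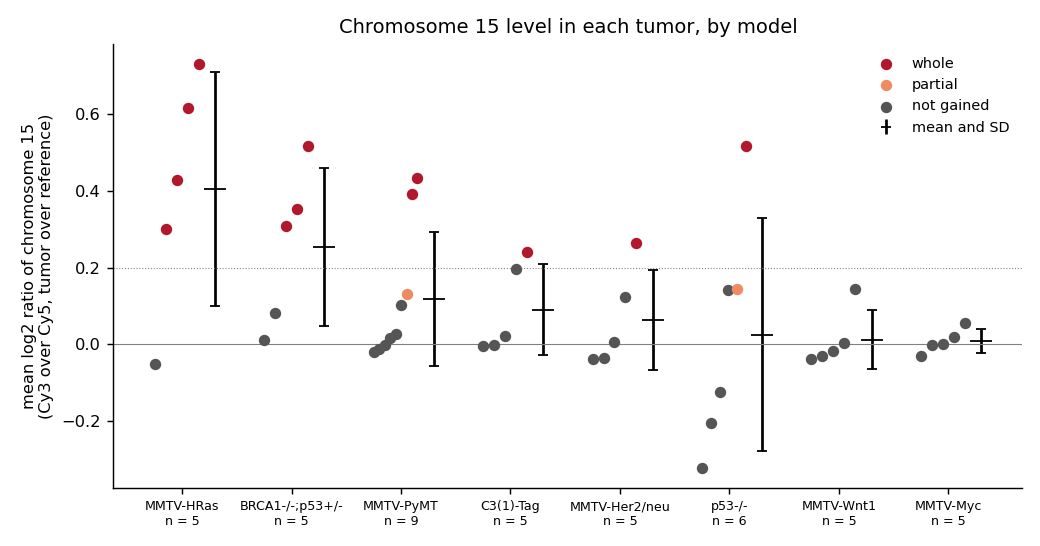
Mean log2 ratio of chromosome 15 (vertical axis, Cy3 over Cy5) in each of the 45 tumors, by model. Points are tumors coloured by whether the chromosome was gained whole, in part or not, bars are the mean and SD, and the dotted line is the limit of 0.2. MMTV-HRas has 4 whole gains between 0.30 and 0.73 and 1 tumor at -0.05, while all MMTV-Myc tumors lie between -0.03 and 0.05.

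MMTV-HRas had the highest model mean, 0.41 ± 0.30 (SD, n = 5), against 0.08 over all tumors outside the model, or 0.32 more (exact permutation test, two-sided, raw p = 0.00218, adjusted over the 8 models p = 0.0174). BRCA1-/-;p53+/- followed at 0.25 ± 0.21, then MMTV-PyMT at 0.12 ± 0.18 (n = 9), C3(1)-Tag at 0.09 ± 0.12, MMTV-Her2/neu at 0.06 ± 0.13, p53-/- at 0.03 ± 0.30 (n = 6), MMTV-Wnt1 at 0.01 ± 0.08 and MMTV-Myc at 0.01 ± 0.03. No model other than MMTV-HRas differed from the rest (permutation tests, adjusted p from 0.416 to 0.988), and neighbours in this order lay within each other's spread. Model accounted for 0.331 of the variance between tumors (permutation p = 0.0263). That call was lost with density-peak centring (0.278, permutation p = 0.0718), normexp background correction (0.217, p = 0.207) and the 6 arrays with another dye normalization code left out (0.315, p = 0.0841), and without MMTV-HRas tumor 2 (0.269, p = 0.0987), tumor 4 (0.259, p = 0.115) or tumor 5 (0.298, p = 0.0567). The MMTV-HRas call was lost with normexp background correction (0.21, exact permutation, adjusted p = 0.215) and without MMTV-HRas tumor 2 (0.27, p = 0.107), tumor 4 (0.24, p = 0.157) or tumor 5 (0.32, p = 0.0504).

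Position by position, the MMTV-HRas difference covered most of the chromosome. In 84 bins of 1 Mb with at least 3 probes, MMTV-HRas lay above the mean of the other 7 models in 72 (85.7%) by limma at an adjusted p under 0.05, against 13.9% of all 2056 bins. The 84 differences ran from 0.21 to 0.45. The largest was in the bin at 20 Mb, at 0.45 ± 0.10 (SE, limma adjusted p = 0.0104), and the smallest at 56 Mb, at 0.21 ± 0.17 (adjusted p = 0.498). With normexp correction, and also without MMTV-HRas tumor 2, 0 of the 84 bins were called for MMTV-HRas. The p53-/- tumors were lower in 1 bin of 84 (1.19%), at 87 Mb with -0.31 ± 0.47 (SD, n = 6), against 4.82% of all bins, and higher in 0, against 2.29%. Without p53-/- tumor 1, a whole gain, 60.7% of the bins were called for p53-/-, all of them lower, against 144 of all 2056 bins called lower in the same fit. Of the other models 0 bins were called by limma, where over all bins the shares higher were 0.389% in BRCA1-/-;p53+/-, 0.0% in C3(1)-Tag, 0.0% in MMTV-Her2/neu, 0.438% in MMTV-Myc, 2.53% in MMTV-PyMT and 0.0486% in MMTV-Wnt1. Calls in either direction over all 2056 bins numbered 51, 0, 0, 9, 56 and 1 in the same order of models. At an unadjusted p under 0.05 the chromosome 15 bins in either direction numbered 13, 0, 0, 5, 2 and 3 in that order. The F test over the 8 models called 25 of 84 bins (29.8%), against 19.4% of all bins. That share was 1.19% without MMTV-HRas tumor 2, against 13.3% of all bins, and 83.3% without MMTV-HRas tumor 3, the tumor with no gain, against 25.1%.

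Among the autosomes, chromosome 15 and chromosome 17 were each gained in 14 tumors, second to chromosome 6 in 19, and chromosomes 15 and 6 each had 12 whole gains, the most of any autosome. The mean over the 45 tumors was 0.12 ± 0.22 for chromosome 15 and 0.17 ± 0.23 for chromosome 6. Chromosome 15 lay above the other autosomes of the same tumor by 0.11 ± 0.22 (SD, n = 45, sign-flip permutation test, two-sided, p = 0.00173), in 28 of 45 tumors. It was the highest autosome in 4 tumors, BRCA1-/-;p53+/- tumors 3 and 5, MMTV-HRas tumor 5 and MMTV-PyMT tumor 1.

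Whole gains were not all flat. In MMTV-HRas tumor 4, the tumor with the highest mean, the chromosome stood at 0.79 from its start to 91.8 Mb, at 0.45 between 91.9 and 102 Mb over 292 probes, and at 0.83 over the last 78 probes. MMTV-HRas tumor 1 went from 0.39 to 0.24 at 73.2 Mb, and BRCA1-/-;p53+/- tumor 2 from 0.43 to 0.24 at 58.7 Mb. MMTV-HRas tumors 2 and 5, MMTV-PyMT tumor 4, C3(1)-Tag tumor 4 and MMTV-Her2/neu tumor 3 were single segments.

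The partial gains were steps of the same size as steps in tumors with no gain. In p53-/- tumor 6 the first 591 probes had 0.22 and the next 992 had 0.10, so 39.0% of the probes were gained. In MMTV-PyMT tumor 9 the proximal segment had 0.24 and the next 150 probes had 0.01, so 42.5% were gained. Over all tumors, 20 boundaries had at least 200 probes on each side, and at 18 of them the mean fell toward the distal end, by 0.07 to 0.34 (median 0.12). MMTV-Her2/neu tumor 4, with no gain, dropped from 0.09 to -0.16 at 73.2 Mb, and MMTV-Myc tumors 2, 3 and 4 dropped by 0.08, 0.07 and 0.10. The boundary between 66838192 and 66962437 was the same in p53-/- tumors 2 and 3 and MMTV-PyMT tumor 1, of which the last was a whole gain. The split into 12 whole and 2 partial gains depended on the method, since density-peak centring left 0 partial gains and running medians of 11 probes in place of segments gave 7 whole and 13 partial.

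**Figure D2:**
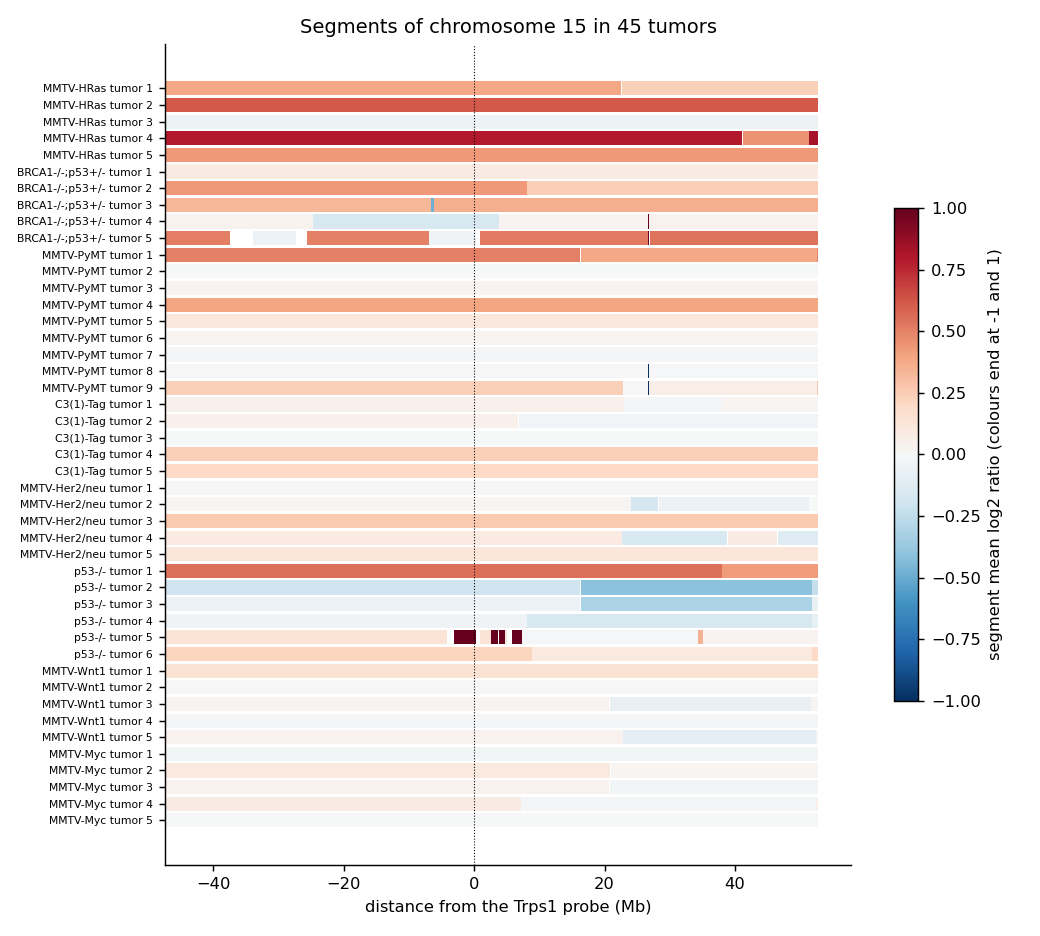
Segment means of chromosome 15 in the 45 tumors (rows, by model) along the distance in Mb from the first Trps1 probe (horizontal axis). Colour is the segment mean log2 ratio, and white is no probes or a mean of 0. Red rows across the full width are whole gains, p53-/- tumor 5 has narrow dark red blocks, and p53-/- tumors 2 and 3 are blue to the right.

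Losses of at least 10% of the probes were found in p53-/- tumor 2, with 59.9% lost, and p53-/- tumor 3, with 57.2%. Both had the same distal segment of 930 probes, from 66962437 to 102360493, at -0.41 and -0.31. The proximal 651 probes had -0.197 in tumor 2, just short of the limit of a loss, and -0.06 in tumor 3. These arrays had probe spreads of 0.437 and 0.487, the latter the highest of all tumors. The p53-/- model thus held both losses and, in tumor 1, a whole gain at 0.55 and 0.43 on either side of 88.6 Mb.

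The stretch from 33 to 77 Mb, which holds most of the human chromosome 8 counterpart, lay above the rest of the chromosome by 0.02 ± 0.05 (SD, n = 45, permutation p = 0.00251), in 31 of 45 tumors. It lay above in 21 of the 31 tumors without a gain as well. The largest difference was 0.26 in p53-/- tumor 5 and the lowest -0.11 in BRCA1-/-;p53+/- tumor 4. Model accounted for 0.288 of the variance of this difference (permutation p = 0.0488). The call was lost in 36 of 45 fits that left out 1 tumor, the lowest value being 0.237 (permutation p = 0.167) without p53-/- tumor 5, and also without the 4 arrays of the nearly identical pairs (0.286, p = 0.0951), without the doubtful MMTV-Wnt1 tumor (0.287, p = 0.0573) and with the stretch set at 34 to 76 Mb (0.269, p = 0.0741).

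The region shared by the most tumors was covered by a gained segment in 15 and lay in 2 runs totalling 3.55 Mb, chr15:53224283-55274734 with 37 probes and chr15:56483204-57978535 with 30 probes. The proximal run holds Samd12, Tnfrsf11b (osteoprotegerin, a decoy receptor for RANKL), Colec10 (a collectin), Mal2 (a transport protein of polarized epithelia), Ccn3 (a matricellular protein), Enpp2 (autotaxin, which makes lysophosphatidic acid), Dscc1 (a sister chromatid cohesion factor), Deptor (an mTOR inhibitor) and Col14a1 (a collagen). The distal run holds Has2 (hyaluronan synthase), Slc22a22, Zhx2 and Zhx1 (zinc finger homeobox factors), Derl1 (an endoplasmic reticulum degradation factor), Fam83a, Atad2 (a bromodomain ATPase) and Wdyhv1 (a deamidase). The fifteenth tumor was p53-/- tumor 5, which had no broad gain: 5.54% of its probes were gained, under the limit of 10%. Without it, the shared region was 36.6 Mb in 14 tumors. The profile between the ends of the chromosome was nearly flat, with 12 to 15 tumors gained at every position, so 1 tumor moved the boundaries. Without BRCA1-/-;p53+/- tumor 5, whose segment over Trps1 had a mean near 0, the shared region was 6.84 Mb in 14 tumors and took in chr15:47528235-50826883 with Trps1.

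**Figure D3:**
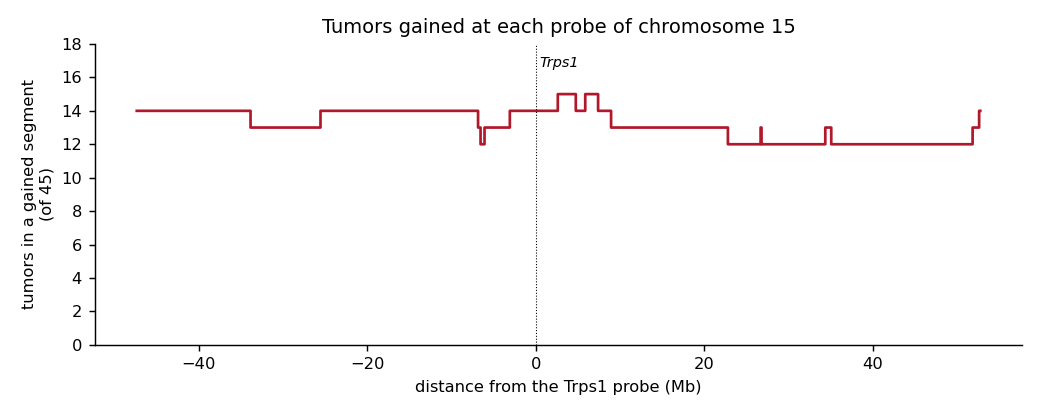
Number of tumors of 45 in a gained segment (vertical axis) at each probe of chromosome 15, by distance in Mb from the first Trps1 probe (horizontal axis). The count stays between 12 and 15 and reaches 15 only in 2 short runs distal of Trps1.

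In p53-/- tumor 5, 4 focal peaks stood about 2 above its chromosome median of 0.05. The first, chr15:47528235-50826883, had a mean of 2.18 over 8 probes and holds Trps1, a GATA-type transcriptional repressor expressed in mammary epithelium, at 2.70. The second, chr15:53224283-54292717, had 2.35 over 15 probes, with Samd12 at 2.25, Tnfrsf11b at 3.08 and Colec10 at 2.05. Of the 3 Tnfrsf11b probes 1 had 5.10, a probe that stood apart from its neighbours in 6 tumors, and the others 2.08 and 2.05. Without it the segment had 2.15. Directly after it, chr15:54396907-55274734 had 1.80 over 22 probes and 1.56 without 1 unnamed probe at 6.94 that stood apart in 12 tumors, with Enpp2 at 1.57, Deptor at 1.47 and Col14a1 at 1.58. The fourth, chr15:56483204-57978535, had 2.06 over 30 probes, with Has2 at 1.85, Zhx2 at 2.22, Derl1 at 1.96 and Atad2 at 2.18. On this scale a value of 2 is 4 times the reference.

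Genes between the peaks stayed near the tumor's own level. Eif3h, a translation initiation subunit, had 0.08, Rad21, a cohesin subunit, 0.08, Med30, a Mediator subunit, 0.10, and Ext1, a heparan sulfate synthase, 0.26 between the first peak and the second. Mrpl13 had 0.07, Mtbp 0.15 and Sntb1 0.12 between the third peak and the fourth. The stretch after 58.0 Mb had -0.01 over 572 probes. The amplified DNA was thus 3 separate stretches with unamplified genes in the 2 gaps. In the other p53-/- tumors Atad2 had 0.58, -0.26, -0.22, -0.13 and 0.22, and Tnfrsf11b had 1.60, -0.15, -0.25, 0.59 and 0.99, so tumor 5 lay above them at both genes. No other tumor had a focal peak here, and 11 peaks were found over all tumors with a finer split of the segments, against 6.

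**Figure D4:**
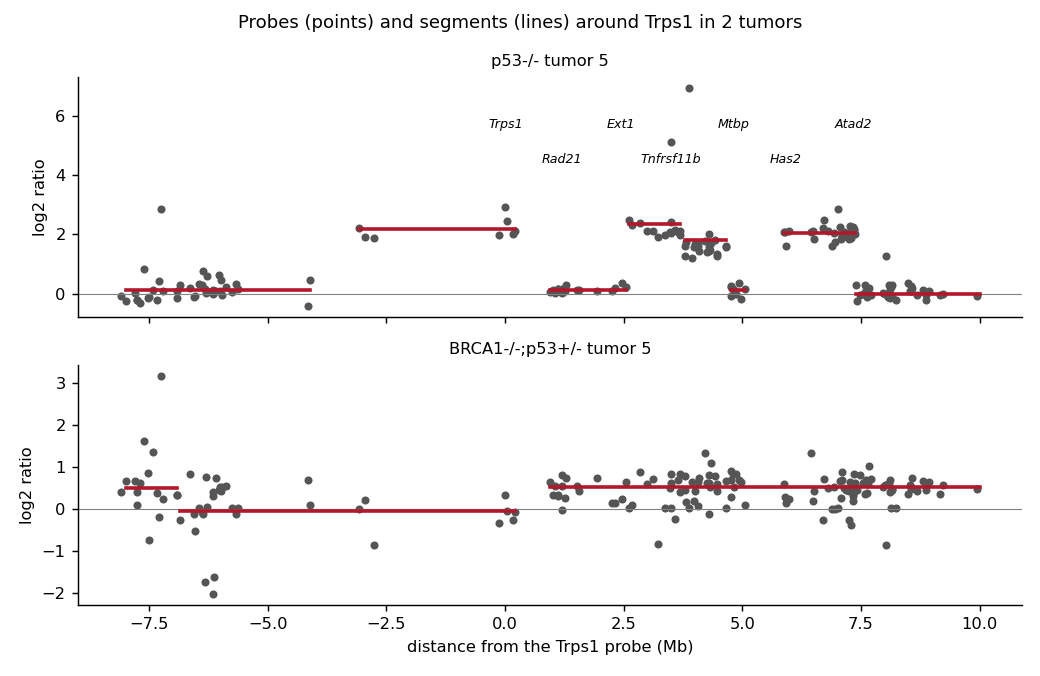
Log2 ratio of single probes (points) and segment means (red lines) by distance in Mb from the first Trps1 probe in p53-/- tumor 5 (top) and BRCA1-/-;p53+/- tumor 5 (bottom). The top panel has blocks near 2 that hold Trps1, Tnfrsf11b, Has2 and Atad2, with Rad21, Ext1 and Mtbp near 0. The bottom panel has a whole gain at about 0.5 and, over and left of Trps1, a segment with a mean near 0 whose probes are spread from -2.02 to 0.83.

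In the BRCA1-/-;p53+/- model, tumor 5, a whole gain at 0.52, had 2 segments with a mean below the limit of a gain. The first, chr15:16737483-23359174, had -0.06 ± 0.56 (SD over 14 probes) in a gene-poor part of the array. The second, chr15:43755915-50826883, had -0.04 ± 0.68 (SD over 33 probes), from Trhr (the thyrotropin-releasing hormone receptor) through Ebag9 to Trps1. Its probes were mixed, with 5 below -0.5, the lowest at -2.02, and 11 at 0.3 or above, among them all 4 probes of Sybu (syntabulin) between 0.42 and 0.73. On this array the deposited ratio was exactly 0 at 22 of 1657 chromosome 15 spots. Probes of this segment at 44150900, 44861668 and 44980771 were among them and are not measured levels. In tumor 3 of the same model a shorter stretch, chr15:44051829-44466882, had -0.48 ± 1.03 (SD over 12 probes) within a chromosome at 0.34. There 5 probes lay below -0.5, namely 1 of the 2 of Trhr, 2 of the 3 of Ebag9 and 2 without a gene name, while Nudcd1 (0.40) and Pkhd1l1 (0.43) were near the level of the chromosome. Both stretches hold Ebag9, which encodes an estrogen-responsive protein.

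Ebag9 was below 0 in 4 of the 5 tumors of this model. Its mean of 3 probes was -0.68, 0.14, -0.88, -1.05 and -1.11 in tumors 1 to 5. Tumor 2 stood apart from the other 4, all of which lay below every tumor of the other models, whose lowest value was -0.41. The first Ebag9 probe had -1.60, -1.12, -1.44 and -2.02 in tumors 1, 3, 4 and 5 and the third -0.41, -1.48, -1.40 and -1.61. The probe between them had -0.02, -0.06, -0.31 and 0.30, within the range of the other models (-0.51 to 0.75), so the low mean rests on 2 of the 3 probes. In MMTV-HRas Ebag9 had 0.37 ± 0.31 (SD, n = 5), and in MMTV-PyMT 0.19 ± 0.25 (n = 9). The models differed at Ebag9 (limma F = 7.43, adjusted p = 0.000687), a call that was lost with normexp background correction.

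At 77.3 Mb, 3 neighbouring probes, 1 of them in Apol10a (an apolipoprotein L family gene) and 2 named on the array by position alone, from 77306842 to 77367588, stood far from their surroundings. Their mean was 3.55, -0.35, 5.43, 4.63 and 4.27 in BRCA1-/-;p53+/- tumors 1 to 5, and again tumor 2 stood apart from the other 4. In the opposite direction, MMTV-PyMT tumors 8 and 9 had -3.41 and -3.18. All other tumors lay between -0.75 and 0.43, except MMTV-PyMT tumor 6, which had -1.31, -2.30 and -0.87 on the 3 probes. Some of these values are not measured levels, since the deposited ratio was exactly 0 at 1 or more of the 3 probes in 30 tumors, BRCA1-/-;p53+/- tumor 2 among them, and at all 3 in MMTV-HRas tumor 5 and MMTV-PyMT tumor 5. Segments over this stretch made the peaks of BRCA1-/-;p53+/- tumors 4 (2.86) and 5 (2.30) and the lowest segments of MMTV-PyMT tumors 8 (-2.23) and 9 (-1.97). The models differed at the Apol10a probe (limma F = 9.88, adjusted p = 6.31e-05), with the ratio of that probe exactly 0 in 14 tumors.

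The dye that carried the signal differed between these arrays. At the Apol10a probe, Cy3 stood at 12.0, 6.22, 5.18 and 5.86 times the background in BRCA1-/-;p53+/- tumors 1, 3, 4 and 5 and at 1.87 times in tumor 2, while Cy5 stood between 1.64 and 2.11 times in all 5. In MMTV-PyMT tumors 8 and 9 Cy5 stood at 13.8 and 16.5 times and Cy3 at 1.97 and 1.99 times. These 2 arrays share a slide and a dye normalization code with MMTV-Wnt1 tumor 5, where Cy3 stood at 6.44 and Cy5 at 15.1 times. Without the 3 probes, the chromosome mean of BRCA1-/-;p53+/- tumor 4 was 0.00 and that of MMTV-PyMT tumor 8 -0.01.

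Trps1 has 2 probes, at 50608719 and 50651068, and they differed from each other. The first had a lowest value of -0.62, a median of 0.78 and a highest of 2.93 over the 45 tumors. The second had -0.24, 0.26 and 2.46. The first lay above its own segment in 40 of 45 tumors, by at least 0.5 in 28, and the second in 36, by at least 0.5 in 1. The first lay above the second in 35 of 45 tumors. In the bin at 50 Mb, the highest named probe in MMTV-PyMT, MMTV-Her2/neu, MMTV-Myc and p53-/- was this first Trps1 probe, with model means of 1.00, 0.88, 0.51 and 1.25.

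Segments placed Trps1 in a gain in 14 of 45 tumors, where 55.0% of the probes were gained in 12 tumors and 30.4% in 14. Over both probes Trps1 had 0.91 ± 0.92 in p53-/- (SD, n = 6), 0.65 ± 0.17 in MMTV-PyMT (n = 9), 0.64 ± 0.27 in MMTV-Her2/neu, 0.58 ± 0.29 in MMTV-HRas, 0.52 ± 0.29 in BRCA1-/-;p53+/-, 0.48 ± 0.20 in C3(1)-Tag, 0.35 ± 0.47 in MMTV-Myc and 0.17 ± 0.17 in MMTV-Wnt1 (n = 5 each). Without the amplified tumor 5 the p53-/- mean was 0.55 ± 0.31 (SD, n = 5), below those of MMTV-PyMT, MMTV-Her2/neu and MMTV-HRas. All model means were above 0, those of models without a single gained tumor included. The models did not differ past the threshold at Trps1 (limma F = 1.66, adjusted p = 0.250). The focal peak in p53-/- tumor 5 is different in kind, since all of its 8 probes stood near 2 or above.

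**Figure D5:**
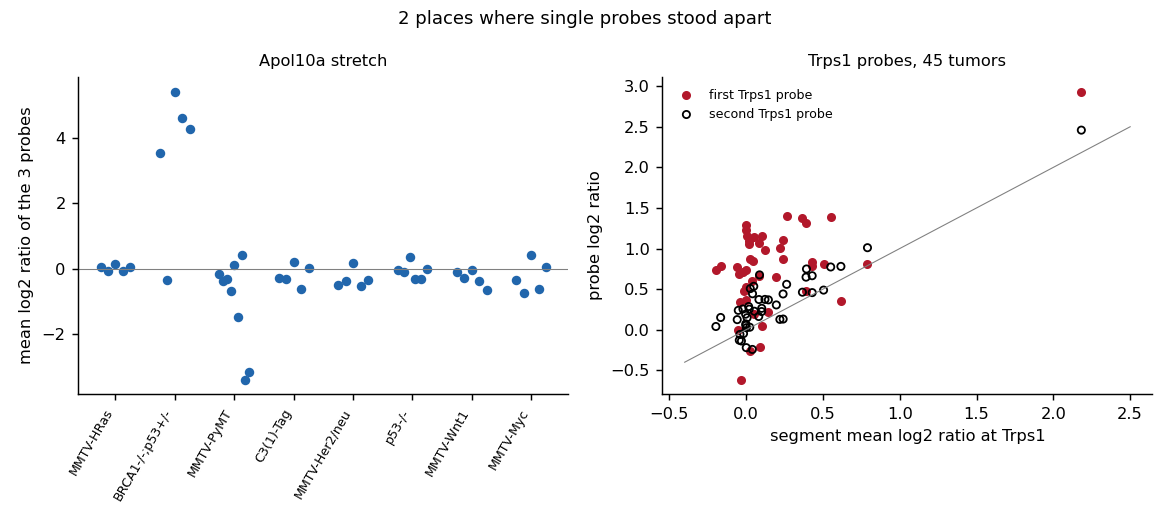
Left, mean log2 ratio of the 3 probes at Apol10a (vertical axis) in each tumor by model. Right, log2 ratio of the 2 Trps1 probes (vertical axis) against the mean of the segment that holds them (horizontal axis) in the 45 tumors, with the line of equal values. On the left 4 BRCA1-/-;p53+/- tumors lie between 3.55 and 5.43 and 2 MMTV-PyMT tumors below -3. On the right most points of the first probe lie above the line.

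Of 804 chromosome 15 genes, 221 (27.5%) differed across models by the limma F test at an adjusted p under 0.05, against 21.1% of all 20171 genes. The count was 59 with slide as a random block, 68 with normexp correction, 127 without MMTV-HRas tumor 2 and 392 without p53-/- tumor 1. Of the 18 genes named by a fixed rule and called, 16 lost the call with normexp correction and 10 with slide as a random block. The 10 were AK147903, Acvr1b, BC089558, Cbx7, Derl1, Krt77, Ly6d, Ly6k, Rac2 and Senp1, all of which were also lost with normexp. Il7r and Apol10a were called in every alternative that gave a value. The counts below are descriptions of gene groups along the chromosome. In a gene that shares the level of a whole gain, a difference between models is that of the chromosome.

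Receptors and growth genes of the proximal part had 9 of 16 measured members called (56.2%), with a median of 0.43 in MMTV-HRas. Gdnf, a neurotrophic ligand of the RET receptor, had 0.41, 0.73, 0.31, 0.74 and 0.81 in MMTV-HRas tumors 1 to 5 and 0.15, 0.38, 0.56, 0.41 and 0.72 in BRCA1-/-;p53+/-. Every one of these tumors lay above 0 at Gdnf, whereas MMTV-Wnt1 ran from -0.35 to 0.29 (limma F = 5.36, adjusted p = 0.00476). Il7r, the interleukin 7 receptor, had 0.50 ± 0.36 and 0.40 ± 0.30 in these 2 models and -0.13 ± 0.08 in MMTV-Myc (SD, n = 5 each, limma adjusted p = 0.00676). Also called were Dab2, Golph3, Ptger4 (a prostaglandin E2 receptor), Nipbl (the cohesin loader), Cdh6, Rictor (a subunit of mTOR complex 2) and Slc1a3. Lifr, the leukemia inhibitory factor receptor, had 0.32 ± 0.45 in MMTV-HRas and the smallest F of the group (0.67, limma adjusted p = 0.743).

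Of 38 measured genes of the middle part whose human counterparts lie on the long arm of chromosome 8, 10 were called (26.3%), near the share of the whole chromosome. They were Ebag9, Pabpc1 (a poly(A)-binding protein), Hsf1 (the heat shock factor), Eif3h, Nsmce2, Eif3e, Mtdh (metadherin), Bop1, Scrib (a polarity protein) and Ywhaz (a 14-3-3 protein). Pabpc1 had 0.46 ± 0.24 in MMTV-HRas, 0.39 ± 0.30 in BRCA1-/-;p53+/- and -0.20 ± 0.30 in MMTV-Myc (SD, n = 5 each), and 0.39, -0.80, -0.87, -0.25, -0.12 and -0.09 in the p53-/- tumors, of which only tumor 1 was above 0 (limma adjusted p = 0.00990). Angpt1, an angiopoietin, had 0.35 ± 0.59 in MMTV-HRas with a lowest tumor of -0.59, and it was not called (limma adjusted p = 0.753). MMTV-HRas had the highest mean of the 8 models in 32 of the 38 by a comparison with no test, and the median of the gene means in p53-/- was 0.09.

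Of 23 genes in the shared region, 2 differed across models by limma, a smaller share than the 27.5% of chromosome 15 genes and 21.1% of all genes. The transcript named AK147903, with 2 probes, had 0.87 ± 0.48 in p53-/- (SD, n = 6), with 1.70 in the amplified tumor 5. It had 0.68 ± 0.45 in BRCA1-/-;p53+/-, 0.57 ± 0.38 in MMTV-HRas and 0.02 ± 0.18 in MMTV-Wnt1 (n = 5 each, limma F = 3.68, adjusted p = 0.0265). Its probe at 54896011 lay 1 or more from its segment in 7 tumors, above it in 6. The AK147903 call was lost with normexp correction, with slide as a random block and with the 6 arrays of another dye normalization code left out. It was lost in 0 of 45 fits that left out 1 tumor. Derl1 (limma F = 3.12, adjusted p = 0.0466) lost its call in 28 of the 45. Derl1 had 0.11, 0.99, -0.04, 0.92 and 0.51 in MMTV-HRas and 0.39, 0.18, 0.42, 0.23, 1.96 and 0.30 in p53-/-, with the amplified tumor 5 far above the others. Tnfrsf11b (limma adjusted p = 0.0898), Enpp2 (0.101), Atad2 (0.581), Has2 (0.560), Mal2 (0.802) and Ccn3 (0.363) were not called. In the MMTV-HRas tumors Atad2 had 0.73, 0.72, -0.01, 0.79 and 0.40, with tumor 3 lowest as for the whole chromosome. Has2 had 0.31 ± 0.19 in MMTV-HRas and -0.25 ± 0.30 in MMTV-Myc (SD, n = 5 each).

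The Ly6 family, small membrane-anchored proteins that mark several stem and immune cells, had 2 of 10 measured members called (20%). Ly6k had 0.55 ± 0.35 (SD, n = 5) in MMTV-HRas, all above 0, and was below 0 in all p53-/- tumors except tumor 1, which had 0.37 (limma adjusted p = 0.0234). Ly6d had 0.42 ± 0.44 in MMTV-HRas and 0.43 ± 0.31 in BRCA1-/-;p53+/- (SD, n = 5 each, limma adjusted p = 0.0247). Psca had the smallest F of the family (limma adjusted p = 0.732), with 0.27 ± 0.51 in MMTV-HRas.

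Type II keratins, the basic partners of the epithelial filaments, had 7 of 17 measured members called (41.2%), namely Krt77, Krt2, Krt72, Krt1, Krt75, Krt79 and Krt6a. Krt77 had 0.31, 0.38, 0.64, 0.02 and 0.67 in BRCA1-/-;p53+/- and 0.20, -0.83, -0.85, -0.42, -0.13 and -0.03 in p53-/-, so that p53-/- tumors 2 and 3, the tumors with losses, were lowest (limma adjusted p = 0.0136). Krt2 went the other way in p53-/-, at 0.33 ± 0.18 (SD, n = 6), and had -0.22 ± 0.16 in C3(1)-Tag (n = 5, limma adjusted p = 0.0146). Krt8, the luminal keratin, was not called (limma adjusted p = 0.509), with 0.30 ± 0.43 in MMTV-HRas. Each of these 3 genes has 1 probe, and the array names all 3 probes after 1 other keratin, Krt85.

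In the Hoxc cluster 5 of 8 measured genes were called (62.5%), Hoxc12, Hoxc8, Hoxc9, Hoxc6 and Hoxc5. Hoxc12 had 0.36, 0.61, 0.00, 1.15 and 0.84 in MMTV-HRas and 0.35, -0.42, -0.33, -0.35, -0.13 and 0.08 in p53-/- (limma adjusted p = 0.00502). Hoxc8 was high in other models too, at 0.35 ± 0.34 in p53-/- (SD, n = 6), 0.31 ± 0.28 in MMTV-PyMT (n = 9) and 0.35 ± 0.31 in MMTV-Her2/neu (n = 5), against -0.21 ± 0.38 in MMTV-Myc and -0.32 ± 0.34 in MMTV-Wnt1 (limma adjusted p = 0.00646). Hoxc4 ran from 0.29 to 0.94 in model means and was not called (limma adjusted p = 0.750). Each gene of this cluster has 1 probe.

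Distal transcription factor and chromatin genes had 3 of 18 called (16.7%), Cbx7 (a Polycomb subunit), Senp1 (a SUMO protease) and Atf4 (the stress response factor). Cbx7 had 0.52 ± 0.39 in MMTV-HRas, 0.46 ± 0.16 in BRCA1-/-;p53+/- and -0.04 ± 0.07 in MMTV-Myc (SD, n = 5 each, limma adjusted p = 0.0209), and Senp1 0.43 ± 0.23, 0.50 ± 0.19 and 0.03 ± 0.17 in the same order (limma adjusted p = 0.0228). Smarcd1, a chromatin remodeling subunit, had the smallest F (0.42). Distal ligands, receptors and adhesion genes had 3 of 11 called (27.3%), Rac2, Acvr1b (an activin receptor) and Itgb7 (an integrin). Rac2, a GTPase of blood cells, had 0.06, 0.64, 0.24, 0.65 and 0.71 in MMTV-HRas and 0.57, -0.98, -0.90, -0.23, -0.13 and 0.01 in p53-/- (limma adjusted p = 0.0229). Acvrl1, next to Acvr1b, was not called (limma adjusted p = 0.462) and has 1 probe.

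Single probes also departed from their surroundings. Of the 1625 probes, 1262 never lay 1 or more from their segment in any tumor, 257 did so in 1 or 2 tumors and 106 in 3 or more. Cyb5r3, a cytochrome b5 reductase, had a probe that did so in 26 tumors, above its segment in 25 of them, with a median of 1.42 over all tumors. Adamts12 had a probe that did so in 19 tumors, above in 16, and Mapk15 a probe that did so in 14, below in all 14. Such probes were kept in the means.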

How the data were processed

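DNA of 45 mammary tumors and reference spleen DNA were hybridized on 2-colour Agilent 44K arrays, 1 array per tumor, and tumors were grouped by the model in the labels. The authors deposited Feature Extraction output whose processed signal intensity is background-subtracted and dye-normalized, and whose log10 ratio is Cy5 over Cy3. Mean log2 ratios of called intervals, also deposited by the authors, were used only to check the direction and as an alternative. The p-values of that table and the authors' tables of single models were not used. The reference is spleen of the background strain per the paper and pooled spleen per the labels.

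The deposited log10 ratios were turned to log2 of Cy3 over Cy5 and each array was centred on its autosomal median. Control spots and spots marked as outliers were left out, and spots of a probe were averaged. The 7 spots of chromosome 15 under 4 gene names were not used. Segments were found by circular binary segmentation at a statistic of 6 with at least 5 probes, after pulling single probes beyond 4 SD of an 11-probe window to that limit; segment means are of the unpulled values. A gain is a segment mean of at least 0.2, and a focal peak stands 0.5 or more above the tumor's chromosome median. The segmentation was tested on simulated data of independent normal values, without the far single probes and broad steps of the arrays. In such data a whole gain of 0.3 can hardly be missed. It recovered all planted whole gains of 0.3 in 50 runs at each of 3 noise levels, and 40% of 30-probe gains of 0.5 at the highest noise. Bins (medians of their probes) and genes (means) were tested with limma 3.58.1 (R 4.3.3) over all 2056 bins and 20171 genes, with Benjamini-Hochberg adjustment. On simulated bins a shift of 0.3 was called in 55% by the contrast and 9% by F. Tumor-level values were compared by permutation, exact where a model was set against the rest and 100000 draws otherwise (Python 3.11.15, scipy 1.17.1). Signal over background on the arrays was 3.62 to 16.5 in Cy3 and 2.07 to 14.3 in Cy5.

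Of 1625 probes, 1370 carry a name, 1050 were matched to 583 symbols of RefSeq GRCm38.p6, and the other names are those of the array. Positions are mm8 as in the file headers. The members, gene lists and tests were chosen with earlier results of these data known. Named genes are Trps1, the genes of the shared region (15 at most, by level) and of focal peaks, for each gene list the 2 with the largest and the 1 with the smallest F, and the gene of the highest probe in each model's most often gained bin. Others are named as neighbours or as called list members. The array name AK080482 lies on 5 scattered probes and is not described. Alternatives left out 4 nearly identical arrays, 1 tumor with a doubtful label or each tumor in turn, and changed dyes, centring, background correction, filters, blocks and thresholds. Leaving out the 6 arrays with another dye normalization code, and slide as a random block for genes, were chosen after seeing the data.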

Additional observations from a re-analysis of the deposited data

Results flagged for a closer look

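Single tumors stood apart from the rest of their model in 23 of 352 sets of values tested by Dixon's criterion, where chance gives about 1 in 20, and 20 of the 23 were genes. The 6 in p53-/- tumor 5 lie in its focal peaks, and genes of focal peaks were among those chosen to be named, so these 6 are a description and do not count against chance. The other 17 were in other tumors, and 17 of 352 is near the 1 in 20 that chance gives, so they are descriptions too. The 6 were Trps1 at 2.70, Samd12 at 2.25, Atad2 at 2.18, Colec10 at 2.05, Derl1 at 1.96 and Enpp2 at 1.57. In p53-/- tumor 1, Ly6k was highest at 0.37. MMTV-Wnt1 tumor 1, whose label is in doubt, had the highest chromosome mean of its model at 0.145. MMTV-Her2/neu tumor 4 had the highest middle minus rest at 0.073 and the highest Ccn3 at 0.60, and MMTV-Her2/neu tumor 3 the highest Apol10a mean at 0.17, with 1 of its 3 probes at a deposited ratio of exactly 0. In MMTV-HRas tumor 3, the tumor of that model with no gain, Ago2 had -1.22 and the transcript named AK046689 -0.29, both the lowest. An Ago2 probe lay 1 or more from its segment in 12 tumors, below it in 10. In MMTV-PyMT, tumor 1 had the highest Colec10 (0.66) and Krt8 (0.93), and tumor 4 the highest Trps1 (1.03). In MMTV-Wnt1, Acvrl1 (-1.17) and Enpp2 (-0.55) were lowest in tumor 5, and Trps1 (-0.11) and the transcript named BC089558 (-0.35) in tumor 3. In MMTV-Myc, Fam83a (-0.086) and Il7r (-0.28) were lowest in tumor 1, and Rac2 (0.055) was highest in tumor 2. The middle of the chromosome minus its rest also differed across the 8 models (permutation test, p = 0.0488), a value that moved past the threshold in most fits that left out 1 tumor.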

How the results depend on the processing

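No paired analysis was possible because the replicate numbers were given in accession order and pair no tumors. With the dyes as labelled, the difference of each model from the others turned to -0.15 in BRCA1-/-;p53+/-, 0.033 in C3(1)-Tag, -0.32 in MMTV-HRas, 0.063 in MMTV-Her2/neu, 0.13 in MMTV-Myc, 0.00129 in MMTV-PyMT, 0.12 in MMTV-Wnt1 and 0.11 in p53-/-, chromosome 15 minus the other autosomes to -0.11 and the middle minus the rest to -0.023, with 2 tumors gained, 0 whole, and a shared gain of 0.106 Mb in 4 tumors. With density-peak centring the variance between models was 0.278 (permutation p = 0.0718), MMTV-PyMT minus the others was 0.028, 0 gains were partial, 1.19% of bins and 136 genes differed across models, and 0% of bins were called for p53-/-. With normexp the variance was 0.217 (permutation p = 0.207), MMTV-HRas minus the others 0.21, MMTV-PyMT 0.017, the shared gain 9.24 Mb, bins that differed 0%, bins called for MMTV-HRas 0%, and genes 68. Leaving out the 4 nearly identical arrays gave 0.286 (permutation p = 0.0951) for the middle across models, 0.372 (p = 0.0242) for gained tumors by model, 9.52% of bins and 134 genes, and leaving out the doubtful MMTV-Wnt1 tumor 0.287 (permutation p = 0.0573) for the middle. Leaving out the 6 arrays with dye code 1, chosen after seeing the data, gave 0.315 (permutation p = 0.0841) for the means, 0.0080 for MMTV-Wnt1 minus the others, 0.296 (p = 0.0948) for the middle, 1 partial gain, 3.57% of bins and 111 genes. Slide as a random block, also chosen after seeing the data, gave 59 genes, and scan date as a random block 10.71% of bins. Within the 6 slides that hold more than 1 model (19 tumors), slide as a fixed block gave 0.030 for MMTV-Her2/neu and 0.082 for MMTV-PyMT.

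A limit of 0.3 gave 0.436 (permutation p = 0.0033) for gained tumors by model. A split statistic of 5 gave a shared gain of 0.22 Mb and 11 focal peaks, and one of 8 gave 1 partial gain. Probes well above background also left 1 partial gain. Running medians of 11 probes gave 7 whole and 13 partial gains and a shared gain in 23 tumors over 0.00012 Mb. The authors' intervals gave 0 partial gains and a shared gain of 0.0607 Mb. A middle of 34 to 76 Mb gave 0.269 (permutation p = 0.0741) across models, and bins of 2 Mb gave 0% for p53-/-.

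Leaving out each tumor in turn gave 0.259 to 0.447 for the variance between models, 0.24 to 0.44 for MMTV-HRas minus the others and -0.041 to 0.016 for MMTV-PyMT, past 0 without any of 17 tumors. It gave 0.237 to 0.377 for the middle across models (36 of 45 fits over the threshold), 0.248 to 0.357 for gained tumors by model, 1 to 2 partial gains, 2 to 6 focal peaks and a shared gain of 3.55 to 36.6 Mb, which was 6.84 Mb without BRCA1-/-;p53+/- tumor 5. Bins that differed ranged from 1.19 to 83.3%, bins called for BRCA1-/-;p53+/- from 0 to 2.38%, for MMTV-HRas from 0 to 92.9% and for p53-/- from 0 to 60.7%, and genes from 127 to 392. The share of bins that differed was not within 1.5 times the main value without any 1 of 15 tumors: MMTV-HRas 2 to 5, BRCA1-/-;p53+/- 2, 3 and 5, MMTV-Her2/neu 1, 2 and 5, p53-/- 1, 3 and 4, MMTV-Myc 3 and MMTV-Wnt1 4. The number of arrays limits the precision, and at the highest noise a gain of 0.5 over 30 probes was found in 40% of simulated runs.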

Other observations

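The authors' intervals and the segments placed the gains of a few tumors differently. Intervals covering at least 99% of the chromosome 15 probes were listed for C3(1)-Tag tumors 3 and 5, p53-/- tumor 6 and MMTV-Wnt1 tumor 1, where the chromosome means were 0.00, 0.20, 0.14 and 0.145 and the segments called no gain, no gain, a partial gain and no gain. For MMTV-PyMT tumor 9, a partial gain by segments with 42.5% of the probes, the intervals covered 0%. C3(1)-Tag tumor 5, with a mean of 0.20, lay just under the limit of a gain, and p53-/- tumor 6 and MMTV-PyMT tumor 9 had 0.14 and 0.13.

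In MMTV-Her2/neu tumor 2 a stretch of 5 probes, chr15:78796642-78869848, with Triobp (an actin-binding protein), H1f0 (a linker histone) and Galr3 (a galanin receptor), had -1.41 ± 1.17 (SD over 5 probes) in a chromosome at 0.00. The H1f0 probe, at -2.83, stood below its segment in 12 tumors, the Galr3 probe had -0.16, and the mean of the 4 probes other than H1f0 was -1.05 ± 0.99 (SD). The array is 1 of the 2 of a nearly identical pair, and no segment of the other, C3(1)-Tag tumor 3, had a boundary there.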
